A study of Mus musculus with 30 samples.

Results

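Hepatocytes hold their identity through a small network of transcription factors, and 9 of these genes were followed here in the livers of mice exposed to cadmium before birth. The 9 genes, out of 14555 gene identifiers in the deposited tables, were picked by symbol and not by their values: Hnf4a, Nr5a2, Cebpa, Cebpb, Foxa2, Foxa3, Onecut1, Hhex and Prox1. Every one of the 9 was listed at each age and passed the filter on low values in each comparison. The study compared the liver transcriptome of CD-1 mice, an outbred stock, after gestational exposure to cadmium chloride (CdCl2) with that of controls. Exposed groups carried the label 500 ppb CdCl2 and control groups the label Control, and the route of exposure and the handling of controls are not stated there. Newborn females were taken at postnatal day 1 (PND1, 4 control and 4 exposed), weanling females at PND21 (3 and 3), and adolescents of both sexes at PND42 (4 and 4 of each sex), for 30 libraries in all. Which mice were litter mates is not given, so p-values measure only the spread between these samples.

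Transcription factors of this network bind one another's genes as well as the genes of plasma proteins, lipoproteins, bile acid synthesis and the urea cycle. HNF4A and NR5A2 are nuclear receptors, CEBPA and CEBPB are basic leucine zipper factors, and FOXA2 and FOXA3 are forkhead proteins that open chromatin at liver enhancers. ONECUT1 (HNF6), HHEX and PROX1 are needed early, when the liver bud forms and hepatoblasts choose between the hepatocyte and the bile duct fate, and they remain expressed in hepatocytes. The Hnf4a gene has an upstream and a downstream start site, and the downstream site is the main one in adult liver. HHEX and PROX1 are also made in endothelial cells, and ONECUT1, HNF4A, FOXA2 and NR5A2 are also made in pancreas.

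Promoters are shown for some of the members, since these factors are known to act on each other's genes. They are those of Hnf4a, Cebpa, Onecut1 and Nr5a2, which passed in PND42 females, and of Hhex. Of the Nr5a2 starts only the downstream one, whose window holds the C/EBP letters, is printed. RefSeq windows on GRCm38.p6 were found for all 9 members, with 14 start sites in all. Each line gives the 250 bases before 1 start site, 5′ to 3′ on the gene's strand, and capitals mark letters that match a searched motif. The motifs were TGTTTAC (FOXA), TTGCNNAA (C/EBP), CAAAGTCC (HNF4A), CAAGGTCA (NR5A2), ATCAATA (ONECUT), TATAAA (the TATA box) and CCAAT, each on both strands and with no overlap between matches in the lines shown.
Hnf4a upstream start, chr2:163506607-163506856, plus strand: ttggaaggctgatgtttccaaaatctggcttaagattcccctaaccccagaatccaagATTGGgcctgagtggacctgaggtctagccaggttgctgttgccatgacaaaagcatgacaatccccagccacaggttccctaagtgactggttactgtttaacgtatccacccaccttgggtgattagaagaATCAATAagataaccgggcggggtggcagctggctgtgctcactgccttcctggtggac
Hnf4a downstream start, chr2:163546905-163547154, plus strand: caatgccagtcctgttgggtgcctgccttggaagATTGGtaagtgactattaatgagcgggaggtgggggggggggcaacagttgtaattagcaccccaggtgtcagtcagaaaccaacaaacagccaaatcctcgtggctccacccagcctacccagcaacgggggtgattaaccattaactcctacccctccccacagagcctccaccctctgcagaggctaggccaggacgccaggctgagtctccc
Cebpa, chr7:35119043-35119292, plus strand: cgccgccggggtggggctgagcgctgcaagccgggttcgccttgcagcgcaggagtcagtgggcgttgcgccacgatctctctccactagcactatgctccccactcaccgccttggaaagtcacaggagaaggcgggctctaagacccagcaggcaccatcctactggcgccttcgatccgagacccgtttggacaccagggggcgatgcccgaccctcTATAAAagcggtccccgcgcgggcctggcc
Onecut1, chr9:74861671-74861920, plus strand: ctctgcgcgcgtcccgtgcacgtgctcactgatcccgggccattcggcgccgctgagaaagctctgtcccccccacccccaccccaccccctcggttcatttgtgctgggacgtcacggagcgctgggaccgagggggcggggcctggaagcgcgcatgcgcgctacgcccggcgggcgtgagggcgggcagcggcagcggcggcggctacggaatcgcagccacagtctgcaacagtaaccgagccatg
Hhex, chr19:37434591-37434840, plus strand: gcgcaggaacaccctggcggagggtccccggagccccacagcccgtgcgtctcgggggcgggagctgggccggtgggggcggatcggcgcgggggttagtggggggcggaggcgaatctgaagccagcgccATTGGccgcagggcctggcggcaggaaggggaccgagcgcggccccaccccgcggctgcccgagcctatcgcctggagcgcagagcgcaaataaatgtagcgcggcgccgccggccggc
Nr5a2 downstream start, chr1:136953631-136953880, minus strand: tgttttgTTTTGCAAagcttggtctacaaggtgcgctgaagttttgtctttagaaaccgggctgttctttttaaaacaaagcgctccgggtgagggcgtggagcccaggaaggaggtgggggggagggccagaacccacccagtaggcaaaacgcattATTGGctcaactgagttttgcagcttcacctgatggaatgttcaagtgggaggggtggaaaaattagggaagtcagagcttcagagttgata

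The ONECUT letters stood 59 to 53 bases before the upstream Hnf4a start and were not found in the window of the downstream start. They were in 2 of the 14 member windows, the other being 214 to 208 bases before 1 of the 3 Foxa2 starts, against 1.86% of all 32851 RefSeq windows of this length. The C/EBP letters were found in 1 of the 14 member windows, that of the downstream Nr5a2 start, against 9.56% of all windows. The FOXA (3.17% of all windows), HNF4A (1.2%) and NR5A2 (1.33%) letters were in none of the 14. The TATA box stood 30 to 25 bases before the Cebpa start, and TATA letters were in 5 of 14 member windows against 12.4% of all. The CCAAT letters were in 6 of 14 against 33.8%. The windows differed in base composition, from 41 CpG and 81.6% G or C at Cebpb to 2 CpG and 43.2% at the upstream Nr5a2 start. All 32851 windows had a median of 6 CpG and 52.4%. A match is a match of letters only, and reads were counted per gene, so the tables do not tell the 2 Hnf4a starts apart.

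Read totals over the listed genes ran from 22.03 to 40.09 M reads a library, and every PND21 exposed library was deeper than every PND21 control. The deposited values are log2 of size-factor normalised read counts plus 1, and PND1 with PND21 were scaled together and PND42 apart, so no level is compared between PND42 and the younger ages. PND42 exposed females stood apart from their controls in 3 measures of their RNA. Mitochondrially encoded reads made up 27.57% ± 6.285 (SD, n = 4) in them against 8.489% ± 3.147 (SD, n = 4) in controls, and mean log2 levels of Malat1 and Neat1, RNAs that stay in the nucleus, were 15.65 against 13.81. Genes with over 300 kb of intron averaged 8.933 against 7.459. For each measure the groups did not overlap (two-sided exact permutation p = 0.02857, the smallest possible, and 0.1143 adjusted over 12 tests), whereas in the other 3 exposure comparisons exact p ran from 0.2286 to 0.6. The part of these measures in the results on PND42 females was not tested. One PND42 female control column carries a tag that the labels give to a PND21 control, so that its sample is uncertain, and it is called unnumbered below together with 3 PND42 male control columns. Of 10 hepatocyte markers 9 were listed, and none of these was at 0 in any library. Exocrine pancreas showed 1 of its 10 markers, Cela1, and the other 9 were not in the tables.

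Compared per kilobase of exon, Cebpa and Hnf4a were the most abundant members in newborn control livers and Onecut1 the least. PND1 controls had 1591 ± 517.5 normalised counts per kb of Cebpa (SD, n = 4), then 1105 ± 288.2 of Hnf4a, 930.0 ± 251.5 of Foxa3 and 572.2 ± 59.9 of Cebpb. Neighbours among these 4 overlapped in their ranges. Foxa2 (312.5), Hhex (270.8), Nr5a2 (219.6) and Prox1 (165.8) followed, each overlapping with the next, and Onecut1 stood alone at 5.406 ± 3.445. In PND21 controls Cebpb led with 4899 ± 834.8 per kb (SD, n = 3), above the range of every other member. Hnf4a (2233) and Cebpa (2190) overlapped behind it. In PND42 control females the order opened with Hnf4a (3374 ± 1484 per kb, n = 4) and Cebpa (3123 ± 367.5), whose ranges overlapped, and in PND42 control males with Cebpb (3763 ± 821.5) and Hnf4a (2935 ± 528.5). Onecut1 was the lowest member in all 8 groups.

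**Figure D1:**
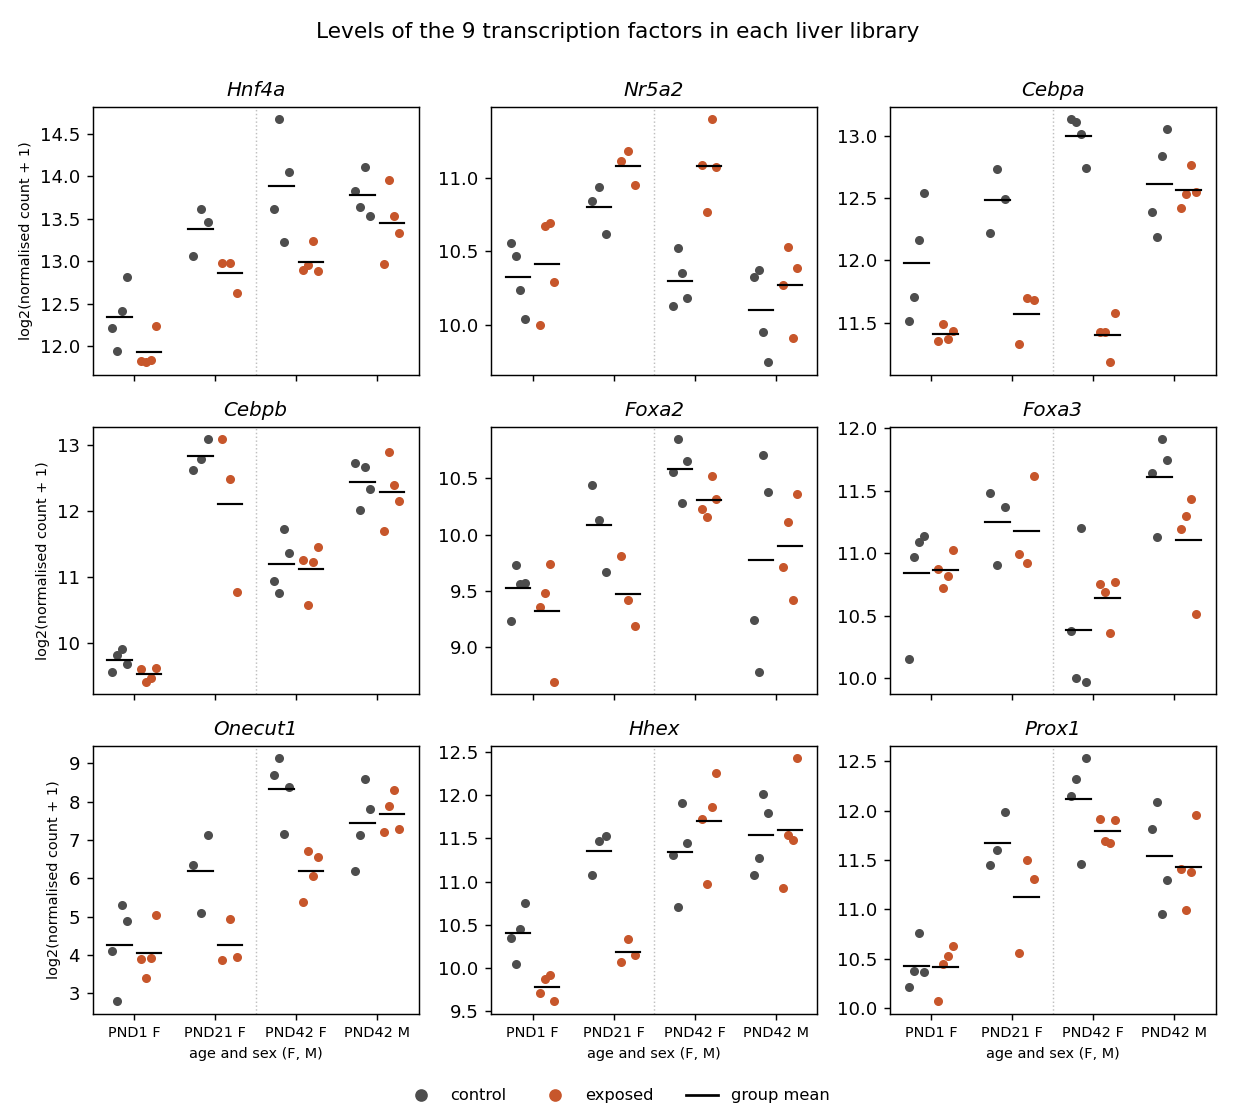
Levels of the 9 factors by library, as log2(normalised count + 1), with 1 point a library, black lines for group means, and control (grey) beside exposed (orange) at PND1, PND21 and PND42 in females (F) and males (M). The dotted line divides tables that were scaled apart. Cebpa in PND42 exposed females lies at 2320 to 3051 normalised counts, below all 4 controls at 6855 to 8966.

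Between birth and weaning the network rose in control livers, with Cebpb rising most. From PND1 to PND21, 7 of 9 members were higher at an adjusted p under 0.05 and 0 were lower, where limma called 52.9% of 14233 genes in either direction and 26.0% higher. The median member fold change was 0.95 on the log2 scale against 0.01 over all genes tested. All these rises are relative to the deposited size factors. Under scaling by total reads the median over all genes became -0.504 and 58.4% of them were called, 2 members (Cebpb and Prox1) stayed past the threshold, and Nr5a2 (-0.04), Cebpa (-0.01) and Foxa3 (-0.10) had a fold change below 0. Erythroid markers moved with age as well: all 11 listed were lower at PND21, and their summed level went from 235900 to 386800 normalised counts in PND1 controls to 28960 to 87280 in PND21 controls. All 10 listed myeloid markers were lower too, and the part of blood-forming cells in the members' rise was not tested. In whole liver, a change in the number of cells of a type and a change in RNA per cell cannot be told apart.

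Cebpb, an activator of acute phase and gluconeogenic genes, measured 754.7, 903.0, 960.6 and 824.1 normalised counts in the 4 newborn controls. In the 3 weanling controls it measured 6279, 7082 and 8741. The groups were far apart, and the log2 fold change was 3.09 ± 0.16 (SE, adjusted p = 3.59e-07 by limma). Prox1, a homeobox factor of hepatoblast growth and metabolism, measured 1185, 1327, 1734 and 1317 at PND1 and 2797, 3104 and 4048 at PND21 (1.25 ± 0.18, adjusted p = 0.000281). Hnf4a went from 4752, 3934, 5454 and 7205 to 8527, 12500 and 11310 (1.03 ± 0.23, adjusted p = 0.00364), and Hhex from 1297, 1054, 1399 and 1727 to 2150, 2830 and 2939 (0.95 ± 0.19, adjusted p = 0.00206). For each of these 4 genes every weanling was above every newborn, and this held for Nr5a2 as well (1052 to 1506 against 1572 to 1957). How many of all genes separated between the ages is not given here. Nr5a2, which governs bile acid and cholesterol genes, rose by 0.47 ± 0.17 (adjusted p = 0.0339), Foxa2 by 0.56 ± 0.20 (adjusted p = 0.0364) and Onecut1 by 1.93 ± 0.65 (adjusted p = 0.0307). Each of these 3 calls was lost when 1 of several single libraries was left out, and under total-read scaling, where Hnf4a (0.517, adjusted p = 0.0646) and Hhex (0.441, adjusted p = 0.0571 by limma) did not pass either. Without PND21 Control replicate 1 only 4 members passed. Cebpa (4194 ± 1364 against 5772 ± 1014 normalised counts, 0.50 ± 0.25, adjusted p = 0.116) and Foxa3 (1894 ± 512.0 against 2475 ± 489.6, 0.42 ± 0.25, adjusted p = 0.188) did not pass.

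Genes that these factors are known to regulate, taken from textbook lists, moved in the same age comparison. Of 20 measured HNF4A target genes 14 rose and 1 fell (median 1.29), among them Apoc3, an apolipoprotein (1356 ± 472.9 to 108600 ± 22210, 6.38 ± 0.29), and Cyp7a1, the rate-limiting enzyme of bile acid synthesis (573.6 ± 160.1 to 6348 ± 1330, 3.49 ± 0.24). The 1 that fell was Apom (-3.62). It and the other single genes named for falling or rising against their list here, Igfbp1, Itih3, Nr0b2, Atf5, Onecut2 and Tbx3, were chosen after their values were seen. Of 15 C/EBP target genes 12 rose and 1 fell (median 1.84), with the acute phase protein gene Orm1 at 7.57 ± 0.23 and the hormone gene Hamp at 3.13 ± 0.22, and Igfbp1 fell by 5.81. Acute phase genes rose in 8 of 17 and fell in 1, with Saa4 at 4.40 ± 0.14 and Itih3 at -0.61. Orm, Saa and Hamp are multigene families in which reads could be split between near-identical copies. NR5A2 target genes rose in 6 of 10 and fell in 2, Afp and the corepressor gene Nr0b2 (-1.02). Of 27 other hepatocyte transcription factors 16 rose and 2, Nr0b2 and Atf5 (-1.80), fell (median 0.78), led by the nuclear receptors Nr1i2 (1.48 ± 0.15) and Nr1h4 (2.35 ± 0.26) and the glucose sensor Mlxipl (2.18 ± 0.25). Hepatoblast and biliary factors went the other way, with 7 of 12 lower and 2, Onecut2 (0.78) and Tbx3 (0.75), higher (median -1.60), and the fetal serum protein gene Afp (-8.49 ± 0.27) and the glypican gene Gpc3 (-4.68 ± 0.21) among those that fell.

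**Figure D2:**
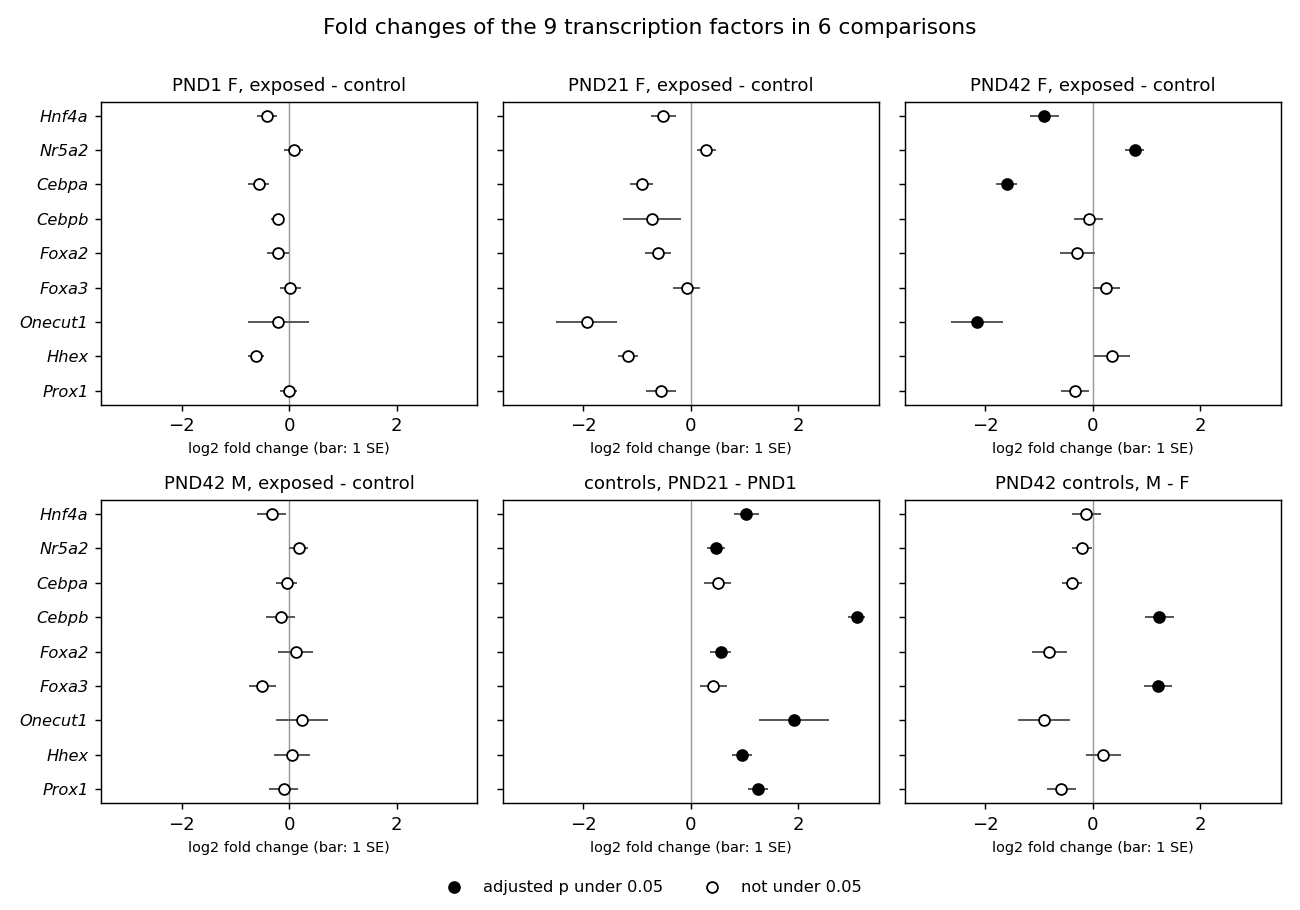
Log2 fold changes of the 9 factors with bars of 1 SE in 6 comparisons (4 of exposed minus control, PND21 minus PND1 controls, and male minus female PND42 controls). Filled points passed an adjusted p under 0.05 in limma: 4 in PND42 females, 7 with age, 2 between sexes and 0 in the other 3.

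In newborns the comparison of exposed with control females asked whether the network differed at birth. Hhex, Cebpa and Hnf4a had the lowest fold changes, and none of the 9 members passed in limma, or in limma voom on the recovered reads (0.0% of 14059 genes passed in limma). Hhex, a homeobox factor of liver bud outgrowth, measured 1297, 1054, 1399 and 1727 normalised counts in controls and 835.5, 931.3, 969.1 and 781.0 in exposed newborns. All 4 exposed values were below all 4 controls, with a log2 fold change of -0.62 ± 0.15 (SE, unadjusted p = 0.00194 and adjusted p = 0.244 by limma). Cebpa, which drives the hepatocyte programme and restrains division, measured 2920, 3335, 4572 and 5948 in controls and 2612, 2878, 2650 and 2758 in exposed newborns. These groups did not overlap either, and the exposed values were tightly grouped (-0.57 ± 0.20, adjusted p = 0.289). How many of all genes separated as Hhex and Cebpa did is not given here. Hnf4a measured 4752, 3934, 5454 and 7205 in controls and 3649, 3597, 3654 and 4819 in exposed newborns, where 1 exposed library overlapped with the controls (-0.42 ± 0.19, adjusted p = 0.338). At an unadjusted p under 0.05 there were 3 of 9 members, all lower, against 14.5% of all genes. The median over the members was -0.21 and that over all genes -0.01.

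The other 6 members differed little at PND1, with Cebpb at -0.21 ± 0.12, Foxa2 at -0.21 ± 0.21, Onecut1 at -0.20 ± 0.57, Prox1 at -0.01 ± 0.16, Foxa3 at 0.02 ± 0.20 and Nr5a2 at 0.09 ± 0.18. Onecut1 had 5.924 to 38.23 normalised counts in these 8 libraries, and its fold change has the largest SE of the 9. Of the 6790 genes that have an adjusted p at PND1 in the authors' deposited table, 1.06% were under 0.05. Hhex was among them in the authors' deposited table, with a log2 fold change of -0.64 and an adjusted p of 0.0265, and Cebpa had an adjusted p of 0.0995 there. Of the target lists, 13 of 15 C/EBP genes (median -0.31) and 15 of 20 HNF4A genes (median -0.35) had fold changes below 0, and 0 passed in any of the 6 lists. Hepatocyte markers had a median of -0.28, with summed levels of 1500000 to 2694000 normalised counts in controls and 1408000 to 1928000 in exposed newborns. All 11 erythroid markers had fold changes above 0 and 0 passed (summed levels 235900 to 386800 against 249400 to 548400). Markers of sinusoidal endothelium, a second site of Hhex expression, summed to 10490 to 11850 in controls and to 13500 to 16340 in exposed newborns. These sums did not overlap, but 5 of the 8 markers were above 0 and 3 below, with a median of 0.15, and 0 passed. With the mean of the erythroid markers as a covariate 0 members passed, and the part of other cell types in the fold changes of Hhex and Cebpa was not tested.

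At weaning none of the 9 members passed in limma, or in limma voom, where limma called 0.036% of 13886 genes. Hhex, Cebpa, Onecut1 and Hnf4a lay lower in every exposed female than in every control, and Nr5a2 lay higher in every exposed female. The share of all genes whose groups separated in this way is not given here, so the separation is not read as particular to the members. Hhex measured 2150, 2830 and 2939 normalised counts in controls and 1074, 1287 and 1136 in exposed females, with no overlap (-1.17 ± 0.19, unadjusted p = 0.000183, adjusted p = 0.211 by limma). In a single fit of the 4 PND1 and PND21 groups, which draws its spread from 14 libraries, Hhex passed with an adjusted p of 0.0159 in limma, and over all alternatives its adjusted p ran from 0.0159 to 0.919. Cebpa measured 4766, 6793 and 5756 in controls and 2571, 3313 and 3285 in exposed females (-0.91 ± 0.21, adjusted p = 0.348). Onecut1 measured 80.24, 33.23 and 139.9 against 13.7, 29.91 and 14.36 (-1.94 ± 0.57, adjusted p = 0.426). The lowest control was only just above the highest exposed value, and levels this low carry counting error. Foxa2 measured 1392, 1120 and 814.4 against 895.7, 681.5 and 582.8, with overlap (-0.61 ± 0.25, adjusted p = 0.492).

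Hnf4a at PND21 measured 8527, 12500 and 11310 in controls and 8067, 8079 and 6324 in exposed females, with a narrow gap and no overlap (-0.52 ± 0.23, adjusted p = 0.516). Prox1 had a fold change of -0.56 ± 0.27 and Foxa3 of -0.08 ± 0.25. Nr5a2 measured 1838, 1957 and 1572 in controls and 2215, 2326 and 1976 in exposed females, with no overlap in the other direction (0.28 ± 0.18, adjusted p = 0.603 by limma). Cebpb spread widely among the 3 exposed females, at 8699, 5715 and 1748, against 6279, 7082 and 8741 in controls (-0.72 ± 0.54). At an unadjusted p under 0.05 there were 4 of 9 members, all lower, against 9.57% of all genes, and the median was -0.61 against -0.01 over all genes. Under scaling by total reads the median over all genes became 0.226, which turned Foxa3 to 0.16, and the signs of the other 8 were as before. Of 14235 genes at PND21 in the authors' deposited table, 3.13% were under 0.05. The authors' deposited table gave Hhex a log2 fold change of -1.18 with an adjusted p of 1.59e-06, Cebpa -0.92 with 0.0108 and Onecut1 -2.12 with 0.0512.

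Of the target lists at PND21, 0 genes passed in any of the 6. Fold changes were below 0 in 17 of 20 HNF4A genes (median -0.38) and 12 of 15 C/EBP genes (median -0.46). All 9 hepatocyte markers were below 0 as well (median -0.60), with summed levels of 2460000 to 5184000 normalised counts in controls and 1767000 to 2789000 in exposed females. Cholangiocyte markers summed to 1241 to 2128 in controls and 1096 to 3990 in exposed females, and sinusoidal endothelium markers to 11670 to 13380 and 12220 to 14750. Fold changes were above 0 for all 10 cell cycle genes (median 1.01), all 7 B cell markers (0.76), 8 of 9 myeloid markers (0.60), 8 of 9 Kupffer cell markers (0.21) and 6 of 9 stellate cell markers (0.60), and 0 passed. The part of cell content in the values of Hhex and Cebpa was not tested.

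**Figure D3:**
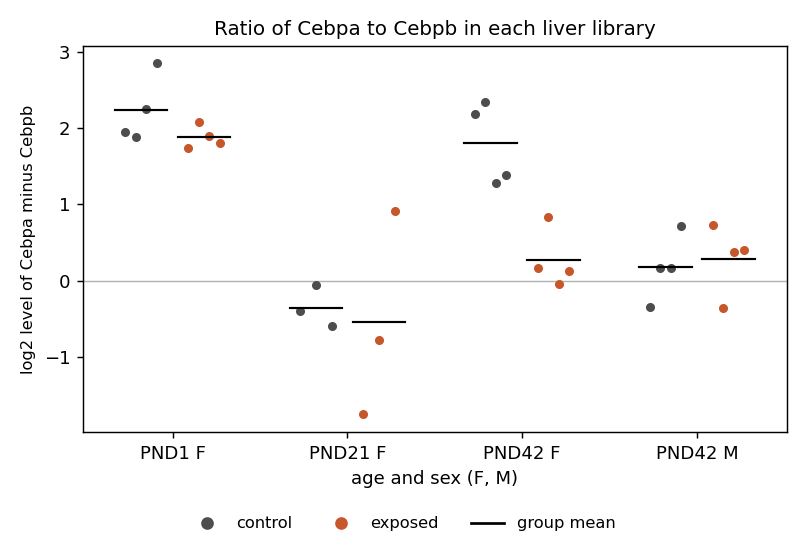
Log2 level of Cebpa minus that of Cebpb within each library, with 1 point a library and black lines for group means, in control (grey) and exposed (orange) livers. PND42 control females lie between 1.283 and 2.346 and exposed females between -0.0423 and 0.8385, while PND21 controls lie between -0.6026 and -0.05998 and PND1 controls between 1.884 and 2.85.

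Of the 4 exposure comparisons, that in adolescent females alone had members past the threshold in limma as fitted here. Cebpa, Onecut1 and Hnf4a fell and Nr5a2 rose in exposed females at PND42, and 5 members did not pass. These 4 of 9 calls, 3 lower and 1 higher, compare with 40.2% of 13091 genes called in this comparison, 21.4% lower and 18.9% higher, so that the share of members called was near the background. Cebpa measured 8966, 8846 and 8261 normalised counts in Control replicates 2, 3 and 4 and 6855 in the unnumbered control. In the 4 exposed females it measured 2741, 2743, 2320 and 3051, far below every control. The log2 fold change was -1.60 ± 0.19 (SE, adjusted p = 2.02e-05 by limma), and 0.611% of genes had a lower p. Onecut1 measured 412.1, 557.8, 140.7 and 330.8 in controls and 40.6, 104.6, 66.18 and 93.76 in exposed females. The lowest control was above the highest exposed value (-2.15 ± 0.48, adjusted p = 0.00224), and fold changes lower than that were found in 0.932% of genes. A lower p than that of Onecut1 was found in 15% of genes, against 16.1% for Nr5a2 and 28.4% for Hnf4a.

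Hnf4a measured 12560, 26020, 9597 and 16990 in control females and 7631, 7960, 9661 and 7549 in exposed females. The highest exposed value was just above the lowest control, and controls spread widely (-0.90 ± 0.27, adjusted p = 0.0139). Without Control replicate 3, which held the highest value, Hnf4a did not pass in limma (-0.64, adjusted p = 0.0588, the highest of a range from 0.00415), and 3 members were called. Nr5a2 measured 1120, 1468, 1307 and 1161 in controls and 2176, 1743, 2691 and 2152 in exposed females, and all 4 exposed values lay above the controls (0.78 ± 0.18, adjusted p = 0.00276). Leaving out the unnumbered control left the same number of members called, 4. Cebpa, Onecut1 and Nr5a2 passed under all 15 alternatives run for this comparison, and Hnf4a under 14.

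The 5 other members in PND42 females did not pass, and their groups overlapped. Cebpb measured 1967, 1740, 3395 and 2624 in controls and 2443, 1534, 2389 and 2799 in exposed females (-0.07 ± 0.27). Hhex, the gene with the lowest p among the members at both younger ages, had a fold change of 0.36 ± 0.33 here (1663 to 3837 against 2010 to 4894 normalised counts). Foxa2 stood at -0.28 ± 0.33, Prox1 at -0.32 ± 0.26 and Foxa3 at 0.26 ± 0.26. Members differ in gene structure: Cebpa has no intron, Onecut1 has 25.75 kb of intron, Hnf4a 61.28 kb and Nr5a2, the 1 member called higher, 111.98 kb. Of the members that did not pass, Cebpb has no intron either, Hhex has 0.87 kb, Foxa2 1.72 kb, Foxa3 8.22 kb and Prox1 44.29 kb. Of these 5, Hhex and Foxa3 had fold changes above 0 and Cebpb, Foxa2 and Prox1 below 0, none of which passed. Genes with 100 to 300 kb of intron averaged 0.64 higher on the log2 scale in exposed than in control females. The part of gene structure in the fold changes of the members, called or not, was not tested.

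In PND42 exposed females 9 of 20 HNF4A target genes fell and 0 rose, against 21.4% of all genes called lower (median -0.75 against 0.00 over all genes tested). Others did not pass, such as the apolipoprotein gene Apoc3 (0.31) and the protein C gene Proc (0.06), both named after their values were seen. By lowest p, the clotting factor gene F9 (7257 ± 1121 to 2610 ± 267.3, -1.47 ± 0.19, adjusted p = 4.2e-05), the lipoprotein gene Apom (2714 ± 1708 to 541.6 ± 102.3, -2.15 ± 0.33) and the bile acid importer gene Slc10a1 (20900 ± 3292 to 6254 ± 556.5, -1.73 ± 0.31) came first. Of 15 C/EBP target genes 8 fell and 0 rose (median -0.84), with the P450 gene Cyp2c29 (21940 ± 6794 to 2682 ± 1275, -3.13 ± 0.55), the urea cycle gene Ass1 (43950 ± 5229 to 18140 ± 6700, -1.35 ± 0.32) and the alcohol dehydrogenase gene Adh1 (54000 ± 11610 to 19440 ± 2377, -1.46 ± 0.35) first. Acute phase genes fell in 8 of 17 and rose in 0 (median -1.28), led by the fibrinogen chains Fgg (-2.27 ± 0.33) and Fgb (-1.79 ± 0.26). NR5A2 target genes were divided, with the sterol exporter gene Abcg5 (3282 ± 1091 to 9884 ± 3604, 1.61 ± 0.36) and the kinase gene Plk3 (1.14 ± 0.40) higher and Cyp8b1, a bile acid 12-alpha-hydroxylase gene that is in the HNF4A list as well, lower (-1.30 ± 0.35). The lists overlap and their counts are not independent.

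Other hepatocyte transcription factors went both ways in these females, with 6 of 27 higher and 4 lower (median 0.11). Of all 13091 genes 18.9% were called higher and 21.4% lower, which is the background for the marker counts below as well. The 4 that fell, named after their values were seen, were Xbp1 (-0.97), Atf5 (-1.02), Cebpg (-0.81) and Nr2f6 (-0.67). The 3 of lowest p all rose: the thyroid hormone receptor gene Thrb (1603 ± 124.7 to 4146 ± 673.7, 1.36 ± 0.19), the zinc finger gene Zbtb20 (6856 ± 751.5 to 19690 ± 2963, 1.52 ± 0.23) and the nuclear factor I gene Nfia (2827 ± 1398 to 10770 ± 1936, 2.08 ± 0.32). Hepatoblast and biliary factors rose in 2 of 8 (among them Igf2bp3 at 2.01 ± 0.43) and fell in 1, the bile duct marker Spp1 (-1.90 ± 0.35). Hepatocyte markers fell in 6 of 9 and rose in 0, with summed levels of 3199000 to 4489000 normalised counts in controls and 1390000 to 2506000 in exposed females. Markers of other cells went both ways. Kupffer cell markers summed to 6849 to 11310 against 4303 to 7626 (5 of 9 fell), stellate cell markers to 12300 to 15520 against 9391 to 11620 (3 of 9 fell) and cholangiocyte markers to 1035 to 2091 against 358.3 to 655.5 (2 of 5 fell). Sinusoidal endothelium markers summed to 9223 to 9930 against 9121 to 9351 (3 of 8 fell and 1 rose). B cell markers summed to 246.5 to 640.3 against 599.6 to 724.9, and 2 of 8 rose, Ebf1 (2.85) and Pax5 (1.46), which were named after their values were seen. The part of cell content in these results was not tested.

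In adolescent males none of the 9 members passed in limma, as for 0.0% of 13091 genes, and none in limma voom, and 0 members had an unadjusted p under 0.05 against 7.12% of all genes. Cebpa measured 5365 in Control replicate 1 and 4661, 7312 and 8477 in the unnumbered controls, and 5485, 5924, 6944 and 6000 in exposed males. The exposed values lay inside the control range (-0.05 ± 0.19). Hnf4a measured 14490, 12730, 17630 and 11840 against 8006, 15920, 11880 and 10300 (-0.33 ± 0.27), Onecut1 72.4, 139.8, 386.6 and 221.3 against 146.7, 236.5, 313.6 and 156.1 (0.24 ± 0.48), and Nr5a2 had a fold change of 0.18 ± 0.18. Foxa3 had the lowest p of the members, at 2238 to 3857 in controls and 1460 to 2758 in exposed males (-0.50 ± 0.26, unadjusted p = 0.0699, adjusted p = 0.622). Of the target lists 0 genes passed in any of the 6. All 20 HNF4A target genes had fold changes below 0 (median -0.20) and 14 of 15 C/EBP target genes did (median -0.47), where 52.9% of all genes were below 0 and their median was -0.03. Control and exposed males had summed hepatocyte markers of 2813000 to 5130000 and 2894000 to 3961000 normalised counts.

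The difference between the sexes in the effect of exposure was itself tested as an interaction at PND42, which called 7.91% of 13091 genes. Cebpa (1.55 ± 0.27, adjusted p = 0.00442) and Onecut1 (2.39 ± 0.68, adjusted p = 0.0411) passed, which is 2 of 9 members, and each was lower with exposure in females than in males. With limma voom on the recovered reads Onecut1 did not pass (2.313, adjusted p = 0.0639, the highest of a range from 0.0345), which left 1 member. Hnf4a (0.57 ± 0.38, adjusted p = 0.372) and Nr5a2 (-0.61 ± 0.26, adjusted p = 0.151) did not pass, so that a difference between the sexes was not shown for them. Among the lists the interaction called 6 of 17 acute phase genes, all with a lower change with exposure in females than in males. Among them were Fgb (1.87 ± 0.37), Fgg (2.08 ± 0.47) and the copper protein gene Cp (1.05 ± 0.27). It also called F9 (1.16 ± 0.27) and Apom (1.76 ± 0.47) among 20 HNF4A targets. Of other hepatocyte transcription factors it called 5 of 27. Xbp1 (1.195) had a lower change with exposure in females than in males. Nfib (-1.40, named with Xbp1 after values were seen), Thrb (-1.25 ± 0.26), Zbtb20 (-1.38 ± 0.32) and Nfia (-1.89 ± 0.46) had a higher change with exposure in females. The part of gene structure and of the RNA measures in these calls was not tested. Across ages, the interaction of exposure with PND21 against PND1 called 0.014% of 14259 genes and 0 members in limma, 0 members in limma voom, and 1 member at an unadjusted p under 0.05. Hhex had the lowest p of the members (-0.55 ± 0.24, unadjusted p = 0.0354, adjusted p = 0.511), so that its fold changes at the 2 ages were not shown to differ.

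Between male and female PND42 controls 2 of 9 members passed, both higher in males, where limma called 6.93% of genes and 4.58% higher. Cebpb measured 1967, 1740, 3395 and 2624 normalised counts in control females and 6817, 4155, 6509 and 5156 in control males, with no overlap (1.24 ± 0.27, adjusted p = 0.0105). Foxa3, which supports glucose and lipid genes in the adult liver, measured 1328, 1026, 2351 and 1003 in females and 3187, 2238, 3857 and 3434 in males, where 1 female was above the lowest male (1.22 ± 0.26, adjusted p = 0.00914). Under scaling by total reads the median over all genes became -0.384 and 16.1% of all genes were called. Then 5 members passed, with Cebpa (-0.75), Foxa2 (-1.18) and Prox1 (-0.95) lower in males beside these 2, and Hhex turned from 0.20 to -0.17. In the lists, HNF4A targets rose in 3 of 20 (Apoa2 at 1.19 ± 0.29, Apoa1 at 1.31 ± 0.36 and Serpina1c at 1.00) and fell in 2 (F7 at -0.84 ± 0.17 and Apom at -1.14), of which Serpina1c and Apom were named after their values were seen. Of 27 other factors 3 were higher in males: Zbtb20 (1.36 ± 0.23), Nfib (1.25 ± 0.27) and Nfia (1.22 ± 0.32). Sox9, a bile duct factor, was higher as well (1.32 ± 0.34), the 1 call among 8 hepatoblast and biliary factors. It was also the 1 call among 5 cholangiocyte markers, of which 3 were below 0 (median -0.125). All 9 Kupffer cell markers were below 0 in males and 5 passed (6849 to 11310 normalised counts in sum in females and 3677 to 5832 in males). RNA measures differed in their means between these controls as well. Mitochondrially encoded reads averaged 17.08% in males (9.029 to 24.83) and 8.489% in females (5.25 to 12.8), with overlap. Genes with over 300 kb of intron averaged 7.792 in males and 7.459 in females. The parts of cell content and of these measures in the sex differences were not tested.

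Cebpa and Cebpb bind the same sites, and the log2 level of Cebpa minus that of Cebpb in 1 library does not move with the size factor. It was 2.233 ± 0.441 (SD, n = 4) in newborn controls and -0.353 ± 0.274 (SD, n = 3) in weanling controls, a difference of -2.59 with no overlap (two-sided exact permutation p = 0.02857, the smallest possible with 4 against 3, and 0.07143 adjusted over 5 tests). In PND42 females it was 1.80 ± 0.544 (SD, n = 4) among controls and 0.272 ± 0.389 (SD, n = 4) among exposed animals, a difference of -1.53 with no overlap (exact permutation p = 0.02857, adjusted p = 0.07143). In PND1 females the difference was -0.35 (exact permutation p = 0.1714), in PND21 females -0.19 (p = 0.8 by the exact permutation test) and in PND42 males 0.11 (p = 0.7143 by the exact permutation test). With 3 against 3 the exact test cannot go below 0.1. None of the 5 passed after adjustment. The plot of this ratio shows PND42 exposed females overlapping with the males, whose ratios averaged 0.176 in controls and 0.283 in exposed males.

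Antisense genes overlap 3 of the members, and the files do not say whether strand was used in counting. Hnf4aos, which shares no exon base with Hnf4a, measured 886.5, 1839, 1431 and 2286 in PND42 control females and 3064, 2269, 2334 and 2373 in exposed females. It rose (0.71 ± 0.24, adjusted p = 0.024) where Hnf4a fell, with 1 control inside the exposed range. Prox1os, with 133 exon bases in common with Prox1, measured 808.2, 487.1, 518.4 and 752.4 in controls and 1318, 1234, 1279 and 1287 in exposed females. All 4 exposed values were above the controls (1.03 ± 0.22, adjusted p = 0.00136), while Prox1 itself was at -0.32 ± 0.26. In this comparison 18.9% of all genes were called higher. The mean log2 level of Malat1 and Neat1 was higher as well, at 15.65 against 13.81. The part of the RNA measures in the rise of the antisense genes was not tested. With age in controls Hnf4aos rose by 3.37 ± 0.27 and Prox1os by 0.56 ± 0.21 (adjusted p = 0.0478). Gm45091, the partner of Cebpa with 51 common exon bases, had means of 18.8 to 49.48 normalised counts against 2714 or more for Cebpa. Tmem189 has 312 exon bases in common with Cebpb and averaged 65.73 at PND42. Gm20649 covers 2171 exon bases of Onecut1, and the sources used here do not say how reads in them were assigned.

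**Figure D4:**
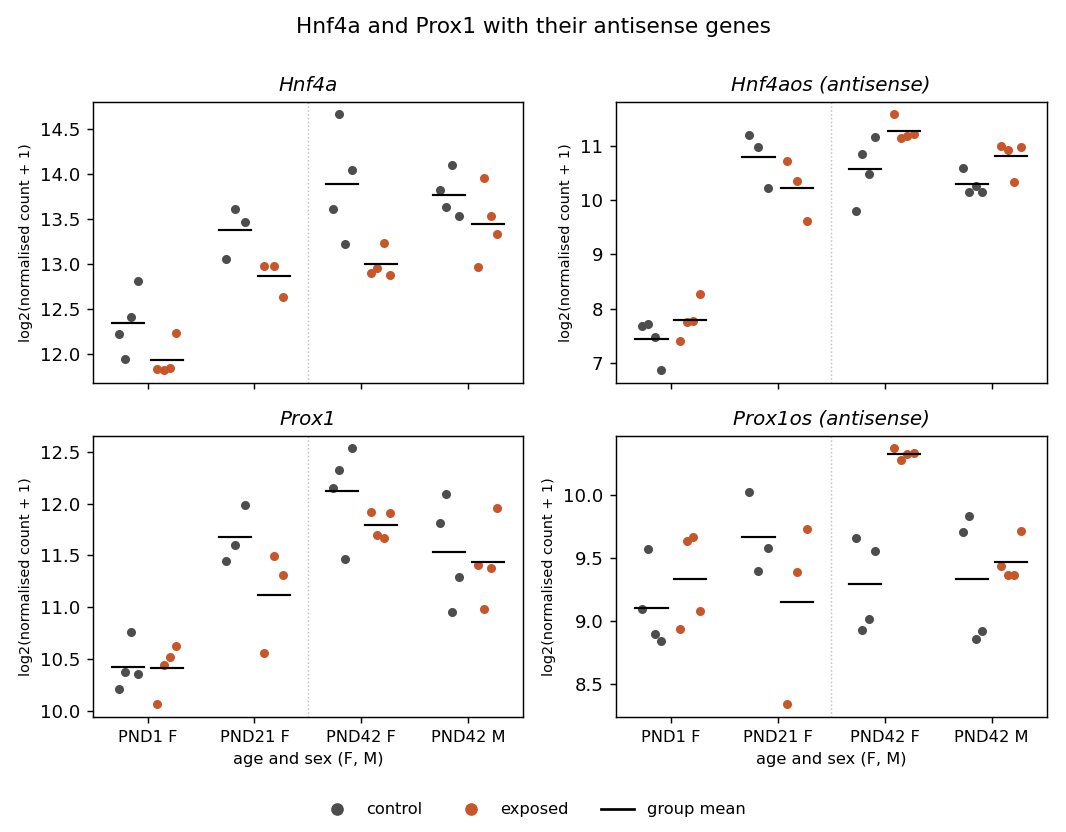
Hnf4a and Prox1 (left) with their antisense genes Hnf4aos and Prox1os (right), as log2(normalised count + 1) by library, with black lines for group means and the dotted line between tables scaled apart. In PND42 exposed females (orange) Hnf4aos and Prox1os lie high, at 2269 to 3064 and 1234 to 1318 normalised counts, while Hnf4a lies low at 7549 to 9661.

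Other genes followed single members closely across the 16 PND42 libraries, among 10494 genes with a mean of at least 100 normalised counts. These values describe libraries that share 4 groups, their scaling and, in exposed females, the RNA measures given above. The highest Pearson r with Cebpa were those of Clta (0.976), a clathrin light chain gene, and Cfi (0.974), a complement regulator gene. Hnf4a was followed most closely by Btbd1 (0.903) and Nfe2l1 (0.893), and Nr5a2 by Tmem175 (0.95) and Rbm5 (0.946). For Onecut1 these were Stard4 (0.877) and Pa2g4 (0.871) and for Foxa3 Snrpd2 (0.926) and Mrpl54 (0.913). Among the genes that followed Cebpb closely was Apoa2 (0.893), a gene of the HNF4A list. Prox1 went with Gm21974 (0.936) and 1300002E11Rik (0.906). The lowest values were those of Foxa2, with Cish (0.814) and Fmo1 (0.797), and of Hhex, with Igsf23 (0.814) and Myc (0.783).

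In mm10, the build of the deposited tables, Hnf4a (ENSMUSG00000017950) lies on chromosome 2 at 163506808 to 163572910, Foxa2 (ENSMUSG00000037025) at 148042877 to 148046969 and Cebpb (ENSMUSG00000056501) at 167688915 to 167690418 of the same chromosome. Cebpa (ENSMUSG00000034957) lies on chromosome 7 at 35119293 to 35121928 and Foxa3 (ENSMUSG00000040891) at 19013284 to 19023538 of the same chromosome. Nr5a2 (ENSMUSG00000026398) lies on chromosome 1 at 136842571 to 136960448 and Prox1 (ENSMUSG00000010175) at 190118035 to 190170714 of the same chromosome. Onecut1 (ENSMUSG00000043013) lies on chromosome 9 at 74861921 to 74891781 and Hhex (ENSMUSG00000024986) on chromosome 19 at 37434810 to 37440731. All 9 are annotated as protein-coding, and the values above count reads over their exons as the authors' per-gene counting defined them.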

How the data were processed

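Liver RNA was sequenced as single-end 125 bp reads, and the labels' protocols set a minimum RNA integrity number of 7. FastQC, STAR, featureCounts and mm10 are named per the submitters' processing notes, with no versions. The deposited log2 values were made by the authors as log2 of read count divided by a size factor, plus 1, which was read from the values: 100% of values gave whole reads within 0.1. The deposited signal column (baseMean) is the authors' mean normalised count and shows that PND1 and PND21 were scaled together and PND42 apart. The deposited p-value columns hold the authors' own test, whose software no label or header names.

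Groups came from the labels, and every library column was placed in a group. For 1 PND42 female control column and 3 PND42 male control columns only the column name gave the group. Their tags matched no sample of that group. Exposed and control groups were compared with limma 3.58.1 (trend, robust) in R 4.3.3 on log2(normalised count + 1), after a filter of 10 normalised counts in as many libraries as the smallest group, with Benjamini-Hochberg adjustment over all genes tested, a threshold of 0.05 and two-sided tests. At PND42 the 4 groups shared 1 fit. Other tools were Python 3.11.15, numpy 2.4.6, pandas 2.3.3, scipy 1.17.1, matplotlib 3.10.9 and data.table (version 1.17.8). Scripts were tested on simulated data. Alternatives were scaling, limma voom, a pseudocount of 8, no filter, other fits and leaving out single libraries. Gene positions and exon lengths are from GENCODE vM21, and promoters from RefSeq. The members, lists and tests were chosen with earlier results of these data known. Beside the members, the rule named the 3 genes of lowest p in each list where any passed, and the 2 genes most alike to each member among those with a mean of at least 100 normalised counts. Not every gene named by this rule is reported here.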

Additional observations from a re-analysis of the deposited data

Results flagged for a closer look

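Foxa3 in PND1 Control replicate 1 was at 10.157 on the log2 scale, and the other 3 controls were at 10.974 to 11.135. The gap to the nearest was 0.835 of the group's range, above Dixon's limit for 4 samples. Hnf4a in PND1 exposed replicate 4 was at 12.235, against 11.813 to 11.836 in the other 3, with a gap of 0.945 of the range. In all, 54 groups of member values were examined this way, and chance marks about 1 in 20. Without that library the fold change of Hnf4a at PND1 was -0.519, and without the Foxa3 library that of Foxa3 was -0.204.

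Cebpa (1.55, adjusted p = 0.00442) and Onecut1 (2.39, adjusted p = 0.0411 by limma) differed between the sexes in their change with exposure at PND42, as tested by the interaction.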

How the results depend on the processing

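Counts of members past the threshold were within 1.5 times the reported ones, except these. A single fit of the 4 younger groups called 1 member (Hhex) at PND21. For age in controls, scaling by total reads called 2, and leaving out 1 library called 4 to 6 (4 without PND21 Control replicate 1). Scaling by total reads called 5 between the sexes in controls, and limma voom called 1 in the interaction of exposure and sex. In PND42 females leaving out 1 library called 3 to 4. The count of all genes called between control sexes, 907, was 2110 under scaling by total reads (5 members), 496 without male Control replicate 1, 386 without female Control replicate 3, 417 without the unnumbered female control, 371 and 1979 without 2 of the unnumbered male controls, and 392 in a fit of those groups alone, with 2 members called in each of these last 6.

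Scaling by total reads reversed the fold changes of Prox1 at PND1 (0.044, and 0.042 with the erythroid mean as a covariate), Foxa3 at PND21 (0.16), Cebpa in PND42 males (0.054, and 0.026 by the upper quartile), Nr5a2 (-0.041), Cebpa (-0.013) and Foxa3 (-0.1) with age, Hhex between sexes (-0.171), and Hnf4a (0.084) and Foxa3 (0.082) in the interaction with age. Of these, Nr5a2 with age passed as reported (0.473) and the others did not pass in either setting. Leaving out 1 library gave both signs for uncalled fold changes. At PND1 Foxa2 ran from -0.347 to 0.001, Foxa3 from -0.204 to 0.122, Nr5a2 from -0.005 to 0.228, Onecut1 from -0.696 to 0.138 and Prox1 from -0.083 to 0.106. At PND21 Foxa3 ran from -0.296 to 0.05, and in PND42 females Cebpb from -0.215 to 0.111. In PND42 males Cebpa ran from -0.192 to 0.096, Cebpb from -0.359 to 0.041, Foxa2 from -0.211 to 0.43, Hhex from -0.223 to 0.277, Onecut1 from -0.172 to 0.629 and Prox1 from -0.298 to 0.08. Between sexes Hhex ran from -0.016 to 0.386 and Hnf4a from -0.338 to 0.142. The Cebpa to Cebpb difference ran from -0.919 to 0.415 at PND21 and from -0.067 to 0.321 in PND42 males. The causes of these reversals were not tested.

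With the replicate block 0 members passed at PND1, 0 at PND21 and 4 in PND42 females, as without it. Same-numbered libraries correlated in their deviations at -0.08 to 0.132 at PND1, -0.043 to 0.233 at PND21 and -0.079 to 0.072 in PND42 females. Pairing by number was thus not shown, and so few pairs cannot exclude it. No paired analysis was possible because fewer than 2 replicate numbers are common to both groups of males. Onecut1 had the lowest counts of the members at the younger ages, with 5.924 to 139.9 normalised counts a library.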
